A study of Mus with 21 samples.

Results

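The clustered protocadherins were taken as every row of the counts table whose gene name starts with Pcdha, Pcdhb or Pcdhg. There were 58 such rows among the 55335 rows of the table, 14 in the alpha cluster, 22 in the beta cluster and 22 in the gamma cluster, and 58 of 58 passed the filter on low counts that left 30552 genes for testing. In the GRCm38.p6 annotation of RefSeq all lie on mouse chromosome 18, the alpha rows from 36930285 to 37188897, the beta rows from 37264998 to 37521419 and the gamma rows from 37661775 to 37841873. Members were ordered within each cluster by isoform number, with the A and B types of the gamma cluster interleaved as they lie along the chromosome and the C types of the alpha and gamma clusters at the end.

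Clustered protocadherins are cell adhesion proteins of neurons. Each neuron expresses a small set of them, and matching sets on touching membranes recognise each other, which lets a neurite tell itself from its neighbours. In the alpha and gamma clusters each variable exon has its own promoter and is spliced to constant exons shared by the whole cluster, whereas a beta gene is a single exon with no constant part. Promoters are chosen through CTCF and the cohesin ring, which brings distant enhancers to them. Cohesin is placed on DNA by a loader that contains NIPBL, and WAPL opens the ring again.

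The data are reads counted on genes in 21 libraries of poly(A) RNA from snap-frozen whole brain of female mouse embryos at E17.5. The study compared 4 genotypes to ask how losing 1 copy of Nipbl, of Wapl or of both alters expression. There were 5 wild-type (WT) embryos (Wapl +/+, Nipbl +/+), 3 Nipbl+/- embryos (labelled Nipbl +/delta), 7 WaplΔ/+ embryos (labelled Wapl delta/+) and 6 Nipbl+/- WaplΔ/+ embryos, referred to as double heterozygotes. The study removed 1 further Nipbl+/- library because it gave too few reads, and that library is not among the 21. The labels write the Wapl deletion before the wild-type allele in 2 WaplΔ/+ and 4 double heterozygous embryos and after it in the other 5 and 2, without saying what the order stands for. Both lesions are constitutive germline deletions: the Nipbl deletion was made in the sires' germline with a Stra8-driven Cre, the Wapl deletion removes the promoter and the opening exons, and E2a-Cre was used to make it. The embryos came from more than a single kind of cross and litters are not given per library, so p-values measure the spread between these embryos.

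Depth ran from 25682566 to 35818767 counted reads per library (median 31830396). Values below are normalized counts, which are TMM-scaled to the mean library of 31471525 reads, unless stated otherwise. Nipbl stood at 2019 to 2402 in WT, at 1104, 1136 and 1287 in the Nipbl+/- embryos and at 1135 to 1244 in the double heterozygotes. Wapl stood at 1389 to 1606 in WT, at 590 to 755 in WaplΔ/+ and at 704 to 774 in the double heterozygotes. Nipbl was at 51.0% to 59.4% of the WT mean in every library labelled with its deletion, and Wapl at 39.6% to 51.9%. The mitochondrial gene mt-Nd3 split the libraries, with fewer than 20 reads in 12 libraries and more in 9, and all 3 Nipbl+/- libraries were among the 12. In the WaplΔ/+ and double heterozygous groups this split fell exactly along the way the Wapl genotype is written, so these cannot be told apart. Changes are log2 fold changes from edgeR's quasi-likelihood test with Benjamini-Hochberg adjustment over all tested genes, and a gene was called at an adjusted p below 0.10.

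The beta cluster fell in Nipbl+/- brain, by an amount that was larger for members late in the cluster, and stood nearer to WT in the double heterozygotes. In Nipbl+/- against WT 21 of 22 beta members were lower past the threshold, with log2 fold changes from -0.39 (Pcdhb5) to -1.17 (Pcdhb21), and the median over the cluster was -0.79. In the same comparison 14 of 14 alpha rows were lower by a much smaller amount (median -0.19) and 0 of 22 gamma rows were called (0.02 to 0.04; DESeq2 also called 0). Of all 30552 genes 6.96% were called lower in that comparison, and the median change of all genes was -0.01. The reads of the alpha and gamma rows are largely common to each cluster, as described further on, so the number of rows called there is not a number of separate genes.

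Summed over the cluster, beta expression ran from 94.8% to 105% of the WT mean in the 5 WT libraries. The 3 Nipbl+/- libraries stood at 57.3%, 61.3% and 58.4% (mean 59.0% ± 2.10, SD, n = 3). The 6 double heterozygous libraries ran from 67.3% to 79.1% (median 72.0%, mean 71.9% ± 4.22, SD, n = 6). The Nipbl+/- libraries lay below every double heterozygous library, which in turn lay below every WT library. The 7 WaplΔ/+ libraries ran from 98.7% to 112% (median 111%) and overlapped WT. No test was made on these sums.

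**Figure D1:**
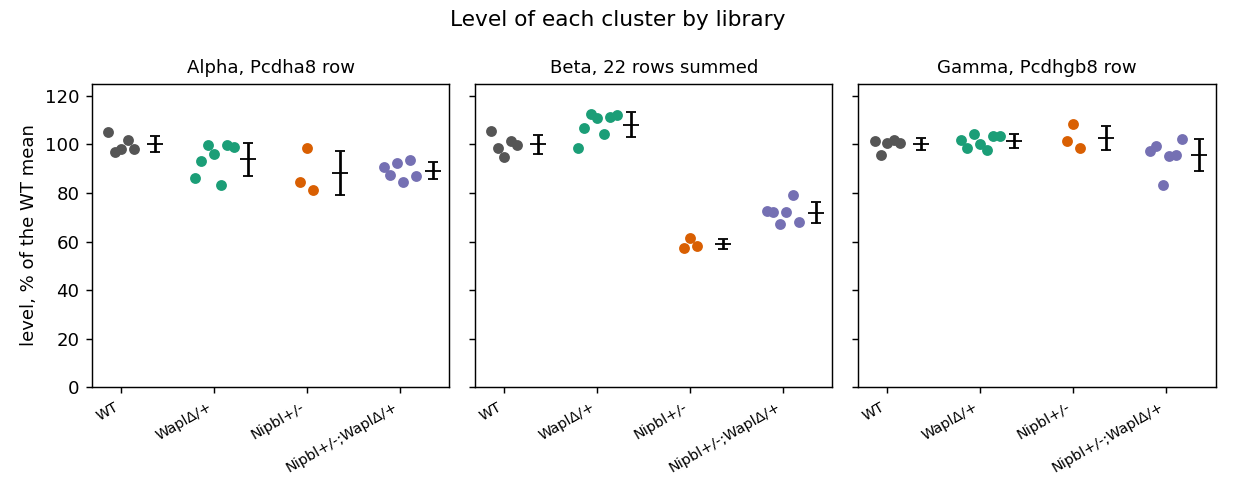
Level of each cluster in each library as a percent of the WT mean, by genotype, for the summed beta members, the lowest alpha row (Pcdha8) and the lowest gamma row (Pcdhgb8); points are libraries and the bars beside them the mean ± SD. The summed beta level separates Nipbl+/- (57.3% to 61.3%), double heterozygotes (67.3% to 79.1%) and WT (94.8% to 105%), whereas the gamma row overlaps between genotypes.

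The last member of the cluster, Pcdhb22 (ENSMUSG00000073591), is among its most highly expressed genes. Its normalized count was 627, 598, 666, 635 and 580 in the WT libraries and 331, 362 and 343 in the Nipbl+/- libraries. It was 562 to 747 (median 682) in WaplΔ/+ and 395 to 468 (median 441) in the double heterozygotes. The 3 Nipbl+/- values were below all others. The log2 fold change was -0.85 ± 0.06 (SE) in Nipbl+/- (adjusted p = 8.81e-07, edgeR) and -0.49 ± 0.06 in the double heterozygotes (adjusted p = 8.81e-05, edgeR), each against WT. Set directly against Nipbl+/-, the double heterozygotes were 0.35 ± 0.07 higher, with an unadjusted p of 0.000239 and an adjusted p of 0.971 (edgeR).

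Pcdhb17 (ENSMUSG00000046387) had the smallest p of all tested genes in Nipbl+/- against WT. It stood at 761, 629, 672, 684 and 642 in WT and at 301, 329 and 314 in Nipbl+/-. WaplΔ/+ libraries held 683 to 835 (median 777), and double heterozygous libraries 398 to 460 (median 440). The 3 groups Nipbl+/-, double heterozygote and WT did not overlap. The change was -1.11 ± 0.07 (SE) in Nipbl+/- (adjusted p = 1.12e-07, edgeR), -0.62 ± 0.05 in the double heterozygotes (adjusted p = 4.5e-06, edgeR) and 0.19 ± 0.06 in WaplΔ/+ (adjusted p = 0.112, edgeR). It was the only gene in the table called higher in the double heterozygotes than in Nipbl+/- (0.48 ± 0.07, adjusted p = 0.067, edgeR).

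Pcdhb3 (ENSMUSG00000045498), near the start of the cluster, was lower than WT in both groups that lack a copy of Nipbl. Its normalized count was 239, 250, 198, 233 and 213 in WT and 143, 149 and 143 in Nipbl+/-. It was 233 to 290 (median 266) in WaplΔ/+ and 137 to 178 (median 160) in the double heterozygotes. The Nipbl+/- and double heterozygous libraries lay below every WT library and overlapped each other. The change was -0.65 ± 0.10 (SE) in Nipbl+/- (adjusted p = 0.000484, edgeR) and -0.51 ± 0.08 in the double heterozygotes (adjusted p = 0.00295, edgeR), and their own difference was 0.13 ± 0.10 (unadjusted p = 0.233, adjusted p = 0.971, edgeR).

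Pcdhb1 (ENSMUSG00000051663), the first member, was barely expressed. It held 0.982 to 5.13 normalized counts in WT and 0.972 to 1.06 in Nipbl+/-, with 0.912 to 3.13 in WaplΔ/+ and 0 to 2.8 in the double heterozygotes. No difference was detectable at this depth. Among members, per kilobase of annotated span in WT, Pcdhb17 was highest with 207 ± 15.8 (SD, n = 5) normalized counts, followed by Pcdhb22 with 203 ± 10.9, Pcdhb20 with 176 ± 11.8 and Pcdhb7 with 136 ± 15.7. Pcdhb17 and Pcdhb22 differed by less than their spread. Pcdhb2 (23.7) was the lowest above Pcdhb1 (1.28 ± 0.631).

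**Figure D2:**
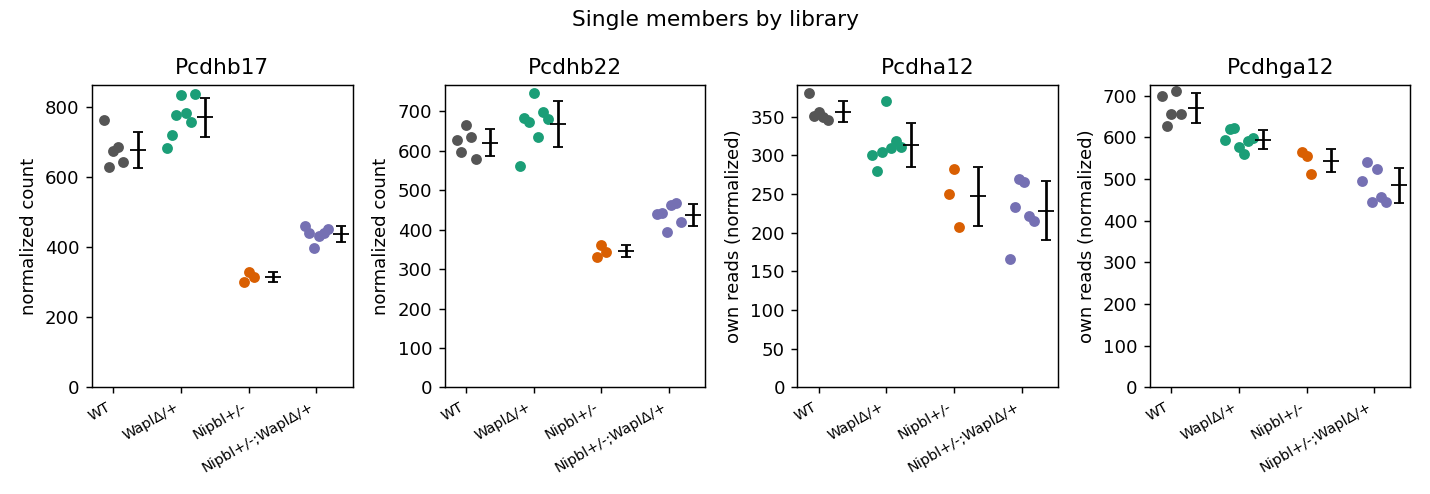
Normalized counts of Pcdhb17 and Pcdhb22 and own reads, defined further on, of Pcdha12 and Pcdhga12 in each library by genotype; points are libraries and the bars beside them the mean ± SD. For Pcdhb17 the Nipbl+/- libraries (301 to 329) lie below the double heterozygous libraries (398 to 460), and both lie below WT (629 to 761).

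Position within the beta cluster went with the size of the fall. The changes in Nipbl+/- against WT ran from -0.39 to -0.80 over the 8 members from Pcdhb2 to Pcdhb9 (median -0.57). They ran from -0.61 to -0.91 over the 6 members from Pcdhb10 to Pcdhb15 (median -0.72). They ran from -0.84 to -1.17 over the 7 members from Pcdhb16 to Pcdhb22 (median -1.04). The summed level of these stretches in the Nipbl+/- libraries was 68.1% to 71.3%, 59.8% to 63.2% and 49.2% to 54.1% of the WT mean, in that order, so the 3 stretches did not overlap. The borders of the stretches were set after the values had been seen and no test was made on them. Over the 21 members without Pcdhb1, order and log2 fold change had a Pearson correlation of -0.67 and a Spearman correlation of -0.69. The WT level of a member and its change had a Pearson correlation of 0.04. These correlations are across genes that share the same 8 libraries and partly similar sequence, and they are given as a description.

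Single members departed from this order. Pcdhb8 had a change of -0.80 ± 0.11 (SE, 3 against 5 libraries), where its neighbours Pcdhb7 and Pcdhb9 had -0.43 ± 0.09 and -0.49 ± 0.08. Pcdhb2 stood at -0.79 ± 0.18 although it is near the start. Late in the cluster, Pcdhb20 (-0.84 ± 0.07) and Pcdhb22 (-0.85 ± 0.06) had smaller changes than Pcdhb16 (-1.13 ± 0.12), Pcdhb17 and Pcdhb19 (-1.04 ± 0.09). The earlier member Pcdhb13 (-0.91 ± 0.13) had a larger change than Pcdhb18 (-0.89 ± 0.10), Pcdhb20 and Pcdhb22. Differences between members were not tested. The Nipbl+/- and WT libraries did not overlap for 20 of 22 members, all but Pcdhb1 and Pcdhb6, where 6.9% of all tested genes were lower without overlap.

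**Figure D3:**
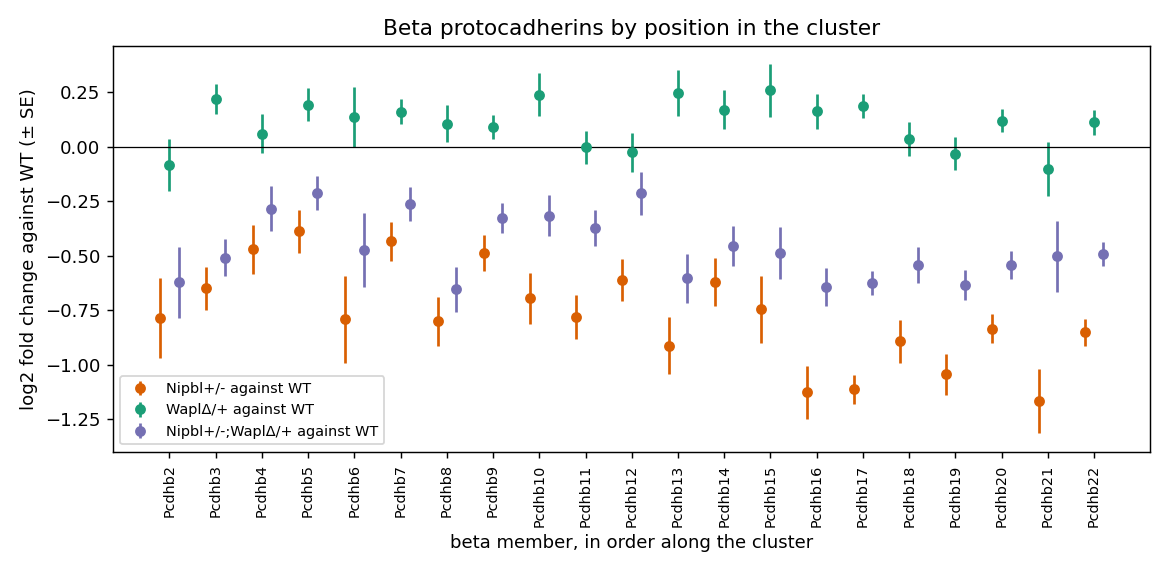
Log2 fold change of the beta members Pcdhb2 to Pcdhb22 by isoform number, for each genotype against WT; points are members and error bars the SE. Nipbl+/- changes run from -0.39 to -1.17 and are, by median, largest over Pcdhb16 to Pcdhb22, double heterozygous changes lie closer to 0, and WaplΔ/+ changes lie around 0.

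In WaplΔ/+ brain 0 of 58 members were called, against 2.21% of all genes in either direction. Beta members were mostly on the higher side, with 16 of 22 changes above 0 and a cluster median of 0.11. At an unadjusted p below 0.05, 8 beta members were higher and 0 were lower, where 7.52% of all genes were higher by that rule. They include Pcdhb3 (0.22 ± 0.07, SE, adjusted p = 0.136, edgeR) and Pcdhb17, and DESeq2 called these members higher, with 2 members called in all. Every beta member overlapped between WaplΔ/+ and WT libraries. All 14 alpha rows had changes below 0 (median -0.09), with 10 at an unadjusted p below 0.05, where 8.12% of all genes were lower by that rule and the rows share most of their reads, and with the smallest adjusted p at 0.262 (edgeR), and the 22 gamma rows lay from 0.01 to 0.03. With the replicate number as a block, 11 alpha rows were called lower, and 1996 genes of the whole table were called against 676 without it. Same-number embryos had correlations from -0.159 to 0.136 over 5 pairs, too few to settle whether the numbers pair embryos. The order of the beta members and the change in WaplΔ/+ had a Pearson correlation of -0.13 (n = 21 members, across genes).

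In the double heterozygotes 16 of 22 beta members and 14 of 14 alpha rows were lower than WT, against 2.46% of all genes called lower, and 0 of 22 gamma rows were called (-0.05 to -0.07; DESeq2 also called 0). The median of the beta cluster was -0.50 and that of the alpha rows -0.15. The alpha calls dropped to 1 row when WT embryo 1 or WT embryo 4 was left out, in a single fit of all 4 groups and with the replicate block, which left 13 to 16 beta calls. The 6 beta members that were not called were Pcdhb1, Pcdhb4 (-0.29), Pcdhb5 (-0.21), Pcdhb6 (-0.48), Pcdhb12 (-0.21) and Pcdhb21 (-0.50). Double heterozygous and WT libraries did not overlap for 12 of 22 beta members, where 2.29% of all genes were lower without overlap. The stretches differed less from each other than in Nipbl+/-, with medians of -0.40 for Pcdhb2 to Pcdhb9, -0.41 for Pcdhb10 to Pcdhb15 and -0.54 for Pcdhb16 to Pcdhb22. The summed levels of these stretches ran from 69.9% to 85.2%, from 69.3% to 85.8% and from 61.6% to 72.8% of the WT mean over the 6 libraries, so all 3 overlapped. Order and change had a Pearson correlation of -0.38 across the 21 members. Within the low mt-Nd3 libraries 12 beta members and 12 alpha rows were called, and within the high ones, with 2 embryos of each genotype, 0 were called at a beta median of -0.46.

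The question whether losing a copy of Wapl alters expression in Nipbl+/- brain is addressed by setting the double heterozygotes against Nipbl+/-. The beta changes were above 0 for 22 of 22 members, with a median of 0.30. Pcdhb17 alone passed the threshold, where 0.00327% of all genes were called higher. At an unadjusted p below 0.05, 10 beta members were higher, where 2.37% of all genes were. These 10 members were all from Pcdhb10 onwards, with 0 of 8 from Pcdhb2 to Pcdhb9 (median 0.16), 3 of 6 from Pcdhb10 to Pcdhb15 (median 0.33) and 7 of 7 from Pcdhb16 to Pcdhb22 (median 0.40). The double heterozygous libraries lay above all Nipbl+/- libraries for 8 of 22 members, where 0.897% of all genes did so. Those members were Pcdhb5, Pcdhb10, Pcdhb11, Pcdhb16, Pcdhb17, Pcdhb19, Pcdhb20 and Pcdhb22. This comparison and that of Nipbl+/- with WT share the 3 Nipbl+/- libraries and are not independent of each other.

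The alpha rows lay from 0.01 to 0.03 and the gamma rows from -0.09 to -0.11 in the double heterozygotes against Nipbl+/-, with no row called. For the beta members the mean of the double heterozygotes lay between those of Nipbl+/- and WT in 22 of 22 members. The call of Pcdhb17 was lost when any of 8 of the 9 libraries was left out, when a term for the mt-Nd3 split was added (0.46, adjusted p = 0.368, edgeR) and within the low mt-Nd3 libraries (0.46, adjusted p = 0.48, edgeR). The call remained without double heterozygous embryo 3.

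**Figure D4:**
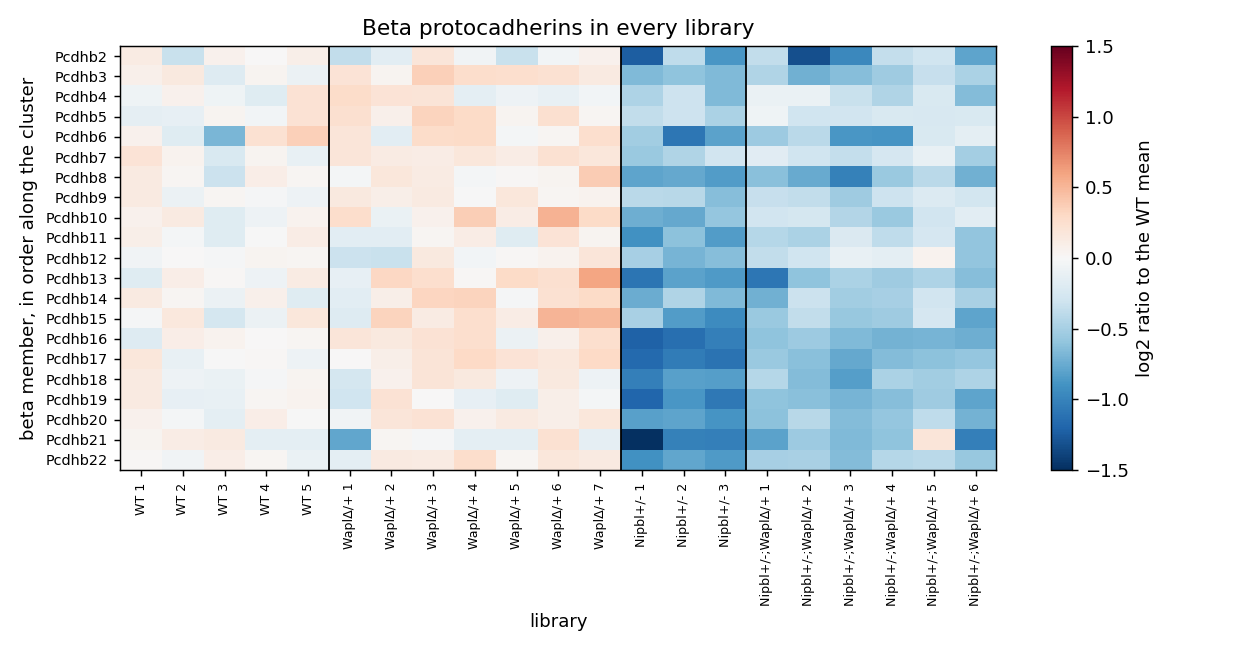
Level of each beta member from Pcdhb2 to Pcdhb22 (rows, by isoform number) in each of the 21 libraries (columns, by genotype), coloured by the log2 ratio to the WT mean. The 3 Nipbl+/- columns are lowest, most of all in the rows from Pcdhb16 to Pcdhb22, and the 6 double heterozygous columns lie between these and WT.

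Against WaplΔ/+, the double heterozygotes had 17 members lower, all of them beta (17 of 22, cluster median -0.59), where 0.812% of all genes were called lower. The libraries of the pair of genotypes did not overlap for 16 of 22 beta members, against 0.717% of all genes. Within the low and within the high mt-Nd3 libraries 6 beta members were called. Pcdhb17 changed by -0.81 ± 0.05 (SE, adjusted p = 5.13e-08, edgeR) and Pcdhb3 by -0.73 ± 0.07 (adjusted p = 2.06e-05, edgeR). The interaction term, which tests whether the effect of losing a copy of Wapl differs with and without a second copy of Nipbl, called 0 of 58 members and 0 of all genes in edgeR (percent called 0). DESeq2 called 793 genes overall and 0 members, although it gave the 22 beta members no adjusted p. At an unadjusted p below 0.05 the term marked 28 members, of which 7 were beta rows above 0 and 21 were gamma rows below 0, where 13.8% of all genes passed that rule. On own reads it marked 9 members, 7 of them beta and 2 gamma, again against 13.8% of all genes. For Pcdhb17 the term was 0.27 ± 0.09 (SE, unadjusted p = 0.00639, adjusted p = 0.204, edgeR).

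The alpha rows could not be read as separate genes from the counts as deposited. The lowest row, Pcdha8, held 82.0% to 85.1% (median 84.1%) of the reads of the highest row, Pcdhac2, in each library. Over 91 pairs of alpha rows the variance of the difference between rows was a median of 0.144 of what independent reads would give, and over 231 pairs of gamma rows it was 0.12. Over 231 pairs of beta rows it was 1.78. The gamma row Pcdhgb8, annotated as a transcribed pseudogene, held 79.8% to 82.0% of the reads of Pcdhgc3. The levels of alpha rows across the 21 libraries had pair correlations of at least 0.979 and those of gamma rows of at least 0.968, against a median of 0.819 for the beta rows. Most reads of an alpha or gamma row were thus also counted in the other rows of its cluster. The count of the lowest row of a cluster was therefore also subtracted from each other row in every library, and the remainder is referred to as the own reads of a member.

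The reads common to the alpha cluster, as the Pcdha8 row, stood at 97.1% to 105% of the WT mean in WT. They stood at 84.6%, 98.5% and 81.3% in Nipbl+/-, at 83.3% to 99.8% (median 95.9%) in WaplΔ/+ and at 84.5% to 93.5% (median 89.1%) in the double heterozygotes. Nipbl+/- embryo 2 was within the WT range and the other 2 were below it. The Pcdha1 row, first in the cluster, changed by -0.19 ± 0.05 (SE) in Nipbl+/- (adjusted p = 0.0299, edgeR) and by -0.15 ± 0.04 in the double heterozygotes (adjusted p = 0.0492, edgeR). Without Nipbl+/- embryo 3, 0 alpha rows were called in Nipbl+/- against WT and all 21 beta calls were made, and without Nipbl+/- embryo 1 the alpha row Pcdha12 was called beside 21 beta members. Within the low mt-Nd3 libraries of these genotypes, 3 Nipbl+/- and 3 WT, 1 alpha row and 19 beta members were called, with a beta median of -0.75. A single fit of all 4 groups called 0 alpha rows and 21 beta members. In the double heterozygotes against WT, leaving out WT embryo 1 or WT embryo 4 left 1 alpha row and 13 beta members, and leaving out double heterozygous embryo 4 left 2 alpha rows and 14 beta members, while the single fit and the replicate block each left 1 alpha row. The reads common to the gamma cluster, as the Pcdhgb8 row, stood at 95.7% to 102% in WT, at 101%, 108% and 98.6% in Nipbl+/- and at 83.3% to 102% (median 96.5%) in the double heterozygotes.

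On own reads, 3 of 13 alpha members were lower in Nipbl+/- than in WT, where 6.93% of all genes were. These were Pcdha12 (ENSMUSG00000103310), Pcdha5 (-0.34 ± 0.09, SE, adjusted p = 0.0302, edgeR) and Pcdha3 (-0.27 ± 0.09, adjusted p = 0.0672, edgeR). Pcdha12, the last of the alternate alpha isoforms, held 380, 351, 356, 349 and 345 own reads in WT, and 250, 283 and 208 in Nipbl+/-. It held 280 to 370 (median 309) in WaplΔ/+ and 166 to 269 (median 227) in the double heterozygotes. Both groups that lack a copy of Nipbl lay below every WT library. The change was -0.53 ± 0.09 in Nipbl+/- (adjusted p = 0.000989, edgeR) and -0.63 ± 0.09 in the double heterozygotes (adjusted p = 0.00102, edgeR), and the double heterozygotes differed from Nipbl+/- by -0.11 ± 0.13 (adjusted p = 0.977, edgeR). Pcdha5 held 348, 326, 303, 284 and 332 own reads in WT and 216, 284 and 260 in Nipbl+/-, with 245 to 315 (median 297) in WaplΔ/+ and 213 to 281 (median 256) in the double heterozygotes. Its double heterozygous libraries all lay below WT, and so did all 3 Nipbl+/- libraries, embryo 2 by less than 1 read.

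The C-type alpha isoforms, which differ from the alternate ones in sequence and are expressed more evenly among neurons, were not called in Nipbl+/- on own reads. Pcdhac1 held 69.9, 45.1, 48.1, 51.4 and 72.0 own reads in WT and 62.6, 91.4 and 86.9 in Nipbl+/-. The groups overlapped, and its change was 0.48 ± 0.17 (SE, adjusted p = 0.114, edgeR), although its row as deposited had -0.18 ± 0.05. It held 46.0 to 74.6 own reads in the double heterozygotes and 28.0 to 56.4 in WaplΔ/+, a difference between these genotypes of 0.59 ± 0.15 (adjusted p = 0.086, edgeR). Pcdhac2 held most own reads of the cluster, 24.4% of them in WT, and had 987, 921, 970, 1015 and 963 in WT and 795, 953 and 886 in Nipbl+/- (-0.15 ± 0.06, adjusted p = 0.117, edgeR). It had 818 to 953 (median 887) in WaplΔ/+ and 792 to 980 (median 948) in the double heterozygotes. Pcdha1 held 37.8 to 49.3 own reads in WT and 14.9, 41.8 and 51.9 in Nipbl+/-, with 19.5 to 62.7 in WaplΔ/+ and 36.4 to 51.6 in the double heterozygotes, so that no difference was detectable at this depth.

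In the double heterozygotes the own reads of 4 alpha members were lower than in WT, where 2.44% of all genes were, namely Pcdha5 (-0.32 ± 0.07, SE), Pcdha9 (-0.33 ± 0.08), Pcdha12 and the Pcdha11 row with the identifier ENSMUSG00000102206 (-0.30 ± 0.07). A second row with the identifier ENSMUSG00000007440 has the same symbol, so neither could be placed in the cluster. The former row held 206, 199, 212, 218 and 209 own reads in WT and 188, 216 and 214 in Nipbl+/-. It held 153 to 195 (median 178) in WaplΔ/+ and 159 to 177 (median 167) in the double heterozygotes, both below every WT library. Its change was -0.26 ± 0.07 in WaplΔ/+ (adjusted p = 0.0989, edgeR) and -0.03 ± 0.08 in Nipbl+/- (adjusted p = 0.912, edgeR). Without both Pcdha11 rows, order within the alpha cluster and own-read change had a Pearson correlation of 0.27 in Nipbl+/- and of -0.77 in WaplΔ/+ across 11 members, all of which had the same reads of Pcdha8 subtracted.

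**Figure D5:**
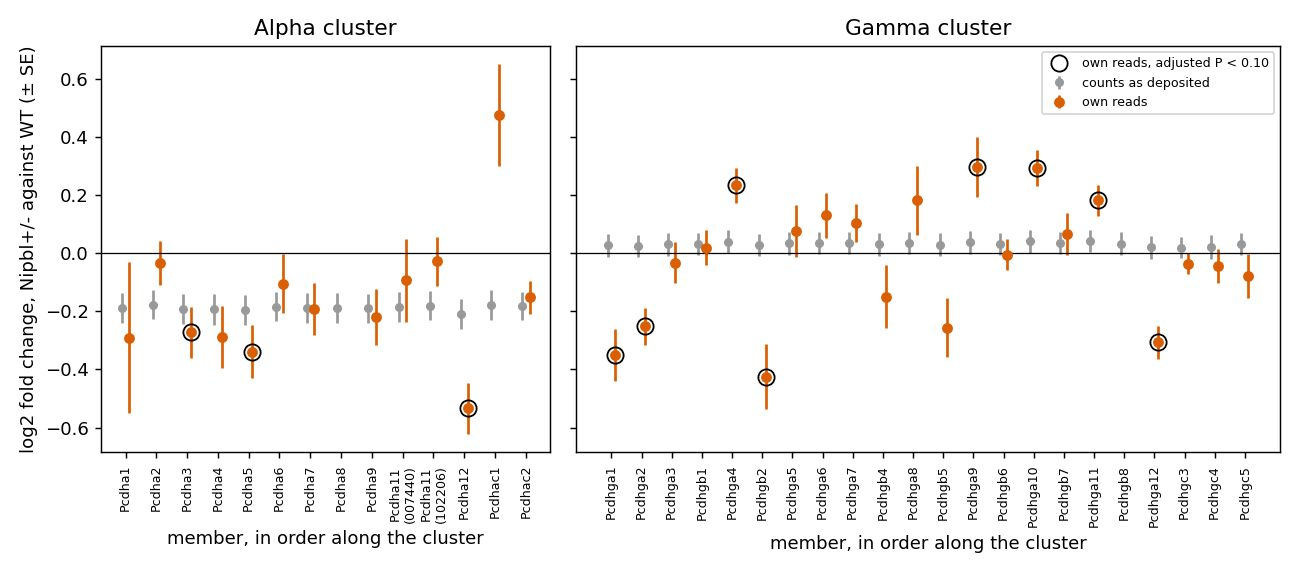
Log2 fold change in Nipbl+/- against WT of alpha and gamma members in order along each cluster, on the counts as deposited (grey) and on own reads (orange); points are members, error bars the SE and circles mark called own reads. The grey points of a cluster lie on a line (-0.18 to -0.21 for alpha, 0.02 to 0.04 for gamma), whereas the own reads scatter (the rows named Pcdha11, whose places are unknown, are drawn side by side), with Pcdha12 (-0.53) and Pcdhgb2 (-0.42) lowest.

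The own reads of gamma members moved both ways in Nipbl+/-, with 4 of 21 lower, against the 6.93% of all genes, and 4 of 21 higher, where 4.26% of all genes were. The lower members were Pcdhga1 (-0.35 ± 0.09, SE), Pcdhga2 (-0.25 ± 0.06), Pcdhgb2 (-0.42 ± 0.11) and Pcdhga12 (-0.31 ± 0.06). The higher members were Pcdhga4 (0.23 ± 0.06), Pcdhga9 (0.30 ± 0.10), Pcdhga10 (0.29 ± 0.06) and Pcdhga11 (0.18 ± 0.05). Lower and higher members were interspersed along the cluster, and order and change had a Pearson correlation of 0.17 across 21 members. The cluster median was 0.00. Of the 11 calls on own reads in both clusters, 7 were made without Nipbl+/- embryo 1 and 6 within the low mt-Nd3 libraries, Pcdha12 and Pcdhga12 among them in both cases.

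Pcdhga12 (ENSMUSG00000102428), the last A-type gamma isoform, held 700, 626, 657, 712 and 656 own reads in WT and 565, 555 and 513 in Nipbl+/-. It held 559 to 621 (median 593) in WaplΔ/+ and 445 to 541 (median 476) in the double heterozygotes. All 3 mutant genotypes lay below every WT library. It was the only gamma member called lower in each of them, by -0.31 in Nipbl+/- (adjusted p = 0.00261, edgeR), by -0.17 ± 0.04 (SE) in WaplΔ/+ (adjusted p = 0.0689, edgeR) and by -0.46 ± 0.06 in the double heterozygotes (adjusted p = 0.000272, edgeR). Pcdhga1, the first member, held 268, 248, 286, 307 and 247 own reads in WT, 217, 201 and 224 in Nipbl+/-, 206 to 291 (median 238) in WaplΔ/+ and 176 to 248 (median 219) in the double heterozygotes.

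Among the higher members, Pcdhga10 held 425, 405, 425, 454 and 411 own reads in WT and 498, 556 and 512 in Nipbl+/- (adjusted p = 0.00616, edgeR). It held 360 to 446 (median 427) in WaplΔ/+ and 373 to 530 (median 511) in the double heterozygotes (0.20 ± 0.07, SE, adjusted p = 0.207, edgeR). Its Nipbl+/- libraries lay above all WT libraries, whereas those of the double heterozygotes ran across both ranges. Pcdhga11 held 1068, 945, 939, 909 and 939 in WT and 1045, 1157 and 1081 in Nipbl+/-, with 783 to 1000.2 in WaplΔ/+ and 903 to 987 in the double heterozygotes.

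The gamma members Pcdhgb1, Pcdhga8 and Pcdhgb6 showed no called difference on own reads in any comparison. Pcdhgb1, the first B-type isoform, held 465, 474, 475, 426 and 451 own reads in WT, 455, 485 and 458 in Nipbl+/-, 419 to 505 (median 460) in WaplΔ/+ and 426 to 458 (median 448) in the double heterozygotes. Pcdhga8 held 198, 267, 280, 326 and 274 in WT, 300, 341 and 276 in Nipbl+/-, 267 to 346 (median 285) in WaplΔ/+ and 285 to 346 (median 305) in the double heterozygotes. Pcdhgb6 held 810, 773, 887, 784 and 814 in WT, 857, 798 and 788 in Nipbl+/-, 775 to 884 (median 854) in WaplΔ/+ and 635 to 816 (median 764) in the double heterozygotes. The genotypes of all 3 members overlapped with WT.

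The C-type gamma isoforms hold a large share of the own reads of the cluster, 25.9% in WT for Pcdhgc3 and 17.7% for Pcdhgc4. Pcdhgc4, which is known to be needed for neuronal survival, held 2633, 2467, 2579, 2615 and 2561 own reads in WT and 2282, 2860.5 and 2368 in Nipbl+/- (-0.04 ± 0.06, SE, adjusted p = 0.754, edgeR). It held 2172 to 2781 (median 2413) in WaplΔ/+ and 2109.8 to 2689 (median 2393) in the double heterozygotes. Pcdhgc3 held 3815, 3721, 3767, 3819 and 3661 own reads in WT, 3812, 3654 and 3571 in Nipbl+/-, 3601 to 4000.4 (median 3739) in WaplΔ/+ and 3008 to 3633 (median 3377) in the double heterozygotes, which lay below every WT library. Pcdhgc5 held 250.3 to 263 in WT, 243, 264 and 230 in Nipbl+/-, 228 to 272 (median 255) in WaplΔ/+ and 191 to 277 (median 252) in the double heterozygotes, so that its groups overlapped. The changes in Nipbl+/- were -0.04 ± 0.04 for Pcdhgc3 and -0.08 ± 0.08 for Pcdhgc5, and neither was called. Pcdhgc3 was lower in the double heterozygotes than in WT (-0.15 ± 0.04, adjusted p = 0.0859, edgeR), as were Pcdhga1 (-0.30 ± 0.09), Pcdhgb2 (-0.34 ± 0.09) and Pcdhga12. Of the 8 own-read calls of this comparison, 5 were made without double heterozygous embryo 1, WT embryo 3 or WT embryo 4 and 3 within the low mt-Nd3 libraries.

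In WaplΔ/+ 2 gamma members were lower on own reads beside the 1 alpha member above, where 1.45% of all genes were. Besides Pcdhga12 this was Pcdhga5, which held 285, 286, 344, 307 and 278 own reads in WT and 221 to 264 (median 242) in WaplΔ/+ (-0.31 ± 0.07, SE, adjusted p = 0.0375, edgeR). Its WT and WaplΔ/+ libraries did not overlap. All 3 calls were lost when WT embryo 1 or WT embryo 2 was left out and within the low mt-Nd3 libraries, and 1 call was left without WT embryo 4, WT embryo 5 or WaplΔ/+ embryo 5. Double heterozygotes and WaplΔ/+ differed on own reads in Pcdha12 (-0.45 ± 0.09), Pcdhac1, Pcdhgb2 (-0.44 ± 0.09), Pcdhgb5 (-0.31 ± 0.07) and Pcdhga12 (-0.29 ± 0.05), where 1.07% of all genes were called in either direction. Double heterozygotes and Nipbl+/- differed in 0 alpha and 0 gamma members on own reads, where 0.00655% of all genes were called, and 2 alpha and 6 gamma members had an unadjusted p below 0.05, where 4.15% of all genes did.

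Among 20 genes that regulate clustered protocadherin choice, 2 were lower and 3 higher in Nipbl+/-. Of all genes 6.96% were called lower there, and 4.26% were called higher in the fit on own reads. The lower ones were the cohesin subunit gene Stag2 (-0.16) and Pds5b (-0.35), which encodes a cohesin-associated protein, and the higher ones were the DNA methyltransferase gene Dnmt1 (0.12) and the histone methyltransferase genes Ehmt1 (0.14) and Ehmt2 (0.13). In WaplΔ/+ 1 was lower, Dnmt3a (-0.17), where 2.21% of all genes were called in either direction. In the double heterozygotes 1 was higher than WT, Stag1 (0.16), which was also higher than in WaplΔ/+ (0.28). These 2 comparisons called 1000 and 311 of the 30552 genes in either direction. Ctcf changed by 0.06 ± 0.04 (SE) in Nipbl+/- and Rad21, the kleisin of cohesin, by -0.02 ± 0.04, and neither was called. Among 16 genes for cytoplasmic partners, 4 were lower in Nipbl+/-, against the 6.96% of all genes. They were Ptk2b (-0.79), Nckap1 (-0.13), Pdcd10 (-0.19) and Prkca (-0.39). Ptk2b was also lower in the double heterozygotes (-0.87), where 2.46% of all genes were. The median changes of the regulators and the partners in Nipbl+/- were 0.02 and -0.06.

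Genes around the 3 clusters were not called lower in Nipbl+/-, though so few genes would hold few such calls at the share of all genes (6.96%). Of 18 genes beside or between the 3 clusters 0 were lower and 4 were higher in Nipbl+/-, with a median of 0.02. The higher ones were Diaph1 (0.14), Hdac3 (0.10), Arap3 (0.15) and Pcdh12 (0.26), where 4.26% of all genes were higher in the fit on own reads. Of these 18, 0 were called in double heterozygotes against WT (median 0.04; 0 in WaplΔ/+ as well), and Taf7 was higher than in WaplΔ/+ (0.19).

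Whole brain holds many cell types, so fewer cells of a type and less RNA per cell cannot be told apart. In Nipbl+/- against WT 6.96% of all genes were called lower, and 4.26% higher in the fit on own reads. In the double heterozygotes against WT 1000 of the 30552 genes were called in either direction, 2.46% of all genes lower. Among 7 markers of neurons 1 was lower in Nipbl+/- (Snap25, -0.15) and 1 higher in the double heterozygotes (Elavl4, 0.14), and their summed level was 165290 to 175389 in WT and 160247 to 166356 in Nipbl+/-. Of 6 progenitor markers 3 were higher in Nipbl+/-, Sox2 (0.22), Nes (0.22) and Eomes (0.33). Their median change was 0.16 in Nipbl+/-, 0.15 in WaplΔ/+ and 0.14 in the double heterozygotes, with 0 called in the last 2 genotypes. Glia and microglia markers were lower beside the beta members in Nipbl+/- and in the double heterozygotes against WT. Between the double heterozygotes and Nipbl+/- 0 of either list were called, but only 2 genes of the whole table were. The median changes in that comparison were -0.05 for glia and 0.18 for microglia. Of 5 glial markers 4 were lower in Nipbl+/- and 5 in the double heterozygotes, and their summed level was 8639 to 9252 in WT, 6079 to 7727 in Nipbl+/-, 6791 to 9551 in WaplΔ/+ and 6255 to 7802 in the double heterozygotes. Of 3 microglia markers 3 were lower in Nipbl+/- and 1 in the double heterozygotes, with a summed level of 1544 to 1831 in WT, 1251 to 1400 in Nipbl+/-, 1529 to 2010 in WaplΔ/+ and 1348 to 1510 in the double heterozygotes. Their part in the beta result was not tested.

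Of 5 markers of meninges and vessels 2 were higher in WaplΔ/+ (Col1a1, 0.62 and Col1a2, 0.38), where 2.21% of all genes were called in either direction. Of 3 blood markers 0 were called in any comparison. Of 4 markers of serotonergic neurons 1 was higher in Nipbl+/- (Ddc, 0.22), where 4.26% of all genes were in the fit on own reads. Of 2 markers of olfactory sensory neurons 0 were called. Of 3 pituitary markers 1 was lower in WaplΔ/+ (Gh), and their summed level reached 2647 in a WT library and stayed below 70 in every Nipbl+/- and WaplΔ/+ library.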

How the data were processed

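Per the labels and the study's methods, the authors extracted poly(A) RNA and sequenced paired-end reads. The submitters' processing notes name cutadapt 2.4, STAR 2.5.3a, Subread 1.6.4 (featureCounts), MultiQC 1.9 and mm10 (GRCm38.p6). The deposited values are raw counts of reads per gene. The strand setting and the handling of reads that match several genes or near-identical beta members are not given in the sources used here, so members with similar sequence may share reads.

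In R 4.3.3, counts were fitted with edgeR 4.0.16 (TMM, quasi-likelihood test) on the groups compared, over genes whose normalized counts summed to at least 10 across the 21 libraries. Normalized counts were scaled to the mean library, chosen because it gave the number of genes tested in an earlier analysis of these files. The median library (30584 genes) and DESeq2 size factors (30504 genes) gave the same number of called members in each comparison. The interaction was fitted on all 4 groups. Own reads are the count minus that of the lowest row of the cluster in the same library, which also removes that row's own reads. All 58 members matched RefSeq by symbol, and the 2 rows named Pcdha11 were given no position. The fits were tested on simulated data. DESeq2 1.42.0, other filters, thresholds, fits and library sets were alternatives.

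Members and gene lists were chosen with earlier results of these data known. Values by library are given for the first, last, C-type and most highly counted members of each cluster and for the 2 with the smallest p in Nipbl+/- and in WaplΔ/+, as own reads in the alpha and gamma clusters and as ranges for larger groups. Other members given with values, such as Pcdhga5, were named as called or as neighbours of these. Replicate numbers gave no clear pairing of embryos (correlation of same-number deviations from -0.239 to 0.299 over the comparisons), though pairs were few and litters are not given.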

Additional observations from a re-analysis of the deposited data

Results flagged for a closer look

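In 5 of 81 groups, over 27 measures, a library stood apart from the others of its genotype by Dixon's test, and chance alone marks about 1 in 20 groups. The 3 Nipbl+/- libraries were too few for that test and were not screened. The own reads of Pcdha12 were 370 in WaplΔ/+ embryo 4, where the next library had 318. The own reads of Pcdhga11 were 1068 in WT embryo 1, where the next had 945, and 903 in double heterozygous embryo 3, where the next had 973. The reads common to the gamma cluster (the Pcdhgb8 row) were 95.7% of the WT mean in WT embryo 2, where the next library had 100.4%, and 83.3% in double heterozygous embryo 3, where the next had 95.3%.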

How the results depend on the processing

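The beta result varied less than the alpha result. In Nipbl+/- against WT 35 members were called. A single fit of all 4 groups called 21 (all beta), the low mt-Nd3 libraries 20, and leaving out 1 library 21 to 35 (21 without Nipbl+/- embryo 3 and 22 without Nipbl+/- embryo 1, where the calls lost were alpha rows). In WaplΔ/+ 0 were called, against 2 with DESeq2, 1 with a filter of at least 1 count (Pcdhb17), 11 with the replicate block, 3 with own reads for alpha and gamma, and 0 to 2 with 1 library left out. In the double heterozygotes 30 were called, against 16 in the single fit, 17 with the block, 0 within the high mt-Nd3 libraries (beta median -0.46, with 2 WT and 2 double heterozygous embryos) and 14 to 33 with 1 library left out. Against Nipbl+/- 1 was called, and 0 at an adjusted p of 0.05, with the mt-Nd3 term or within the low set, with 0 to 1 when leaving out 1 library. Against WaplΔ/+ 17 were called, 6 within either mt-Nd3 set and 16 to 19 with 1 library left out. The interaction called 0, and 0 to 1 with 1 library left out (Pcdhb19 without double heterozygous embryo 6 or WaplΔ/+ embryo 2).

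On own reads, 11 alpha and gamma members were called in Nipbl+/-, against 7 with the block, 6 in the low set and 7 to 13 with 1 library left out (7 without Nipbl+/- embryo 1). In WaplΔ/+ 3 were called, against 5 with DESeq2 or with the second lowest row subtracted, 1 with the mt-Nd3 term, 0 in the low set or the single fit and 0 to 4 with 1 library left out. In the double heterozygotes 8 were called, against 3 in the low set, 5 in the single fit and 5 to 9 with 1 library left out (5 without double heterozygous embryo 1, WT embryo 3 or WT embryo 4). Against WT, own reads had another sign than the row as deposited in 1 of 13 alpha and 11 of 21 gamma members in Nipbl+/- (4 of these called lower on own reads), in 3 and 12 in WaplΔ/+ (2 called) and in 2 and 6 in the double heterozygotes. Rows called as deposited that turned were Pcdhac1 in Nipbl+/- (0.48) and Pcdhac1 (0.17) and Pcdha6 (0.15) in the double heterozygotes. In the interaction, where no row was called, 3 of 13 alpha and 4 of 21 gamma members turned, Pcdhga1 (0.17) among them. Subtracting the second lowest row, own reads under the other settings and the other filter scalings were chosen after seeing the data. Of 1400 alternative values for 65 changes of named members that had an unadjusted p below 0.05, 1245 kept their direction and side of the threshold, 130 lost the call, 22 gained it and 3 turned. The cause of these shifts was not tested. Pcdhb1 and the own reads of Pcdha1 were too few to show a difference.

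Over all genes in Nipbl+/- against WT, 3422 were called, and 1659 in the single fit.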
